A study of Mus musculus with 23 samples.

Results

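The genes described here are 41 genes of DNA replication and mitosis whose transcription is driven by E2F factors, taken from the deposited mouse hippocampus count table by gene name. They are 41 of the 37173 genes in that table, and all 41 passed the minimum of reads that the test required. By role they comprise 6 subunits of the replicative helicase, 5 genes of origin licensing and firing, 4 of DNA synthesis, 4 of nucleotide supply, 4 of G1/S control, 5 of chromatin and checkpoint, and 13 of mitosis.

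The study sequenced poly-A RNA of 23 mice, each giving 1 library from both of its hippocampi at an age of about 5 months. It crossed loss of p16, a product of the Cdkn2a locus, with the App knock-in allele NLGF. This is a humanised amyloid precursor allele that carries familial Alzheimer mutations and drives plaque formation. The groups were WT (n = 6), p16KO (P16 KO/KO, n = 6), AppNLGF (APP NLGF/NLGF, n = 5) and AppNLGF_p16KO, homozygous for both alleles (n = 6). The labels do not say which exons the p16 allele removes. Sex was inferred here from reads of Y-linked genes against Xist. It gave 3 males and 3 females in WT, p16KO and AppNLGF_p16KO, and 3 and 2 in AppNLGF. The title poses the question of how p16 loss affects hippocampal transcription, alone and beside Alzheimer-associated alleles.

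E2F factors are held inactive by the retinoblastoma protein until cyclin D with Cdk4 or Cdk6 phosphorylates it, and p16 is an inhibitor of those kinases. Once released, E2F switches on genes that license origins, build the replication fork and supply nucleotides, and the DREAM and MuvB complexes time the later mitotic genes. In the adult hippocampus most cells are postmitotic, and division is known mainly from progenitors of the dentate gyrus, oligodendrocyte precursors, microglia and vascular cells.

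The libraries held 40693561 to 61178839 counted reads each, and 19423 genes were tested. Cdkn2a itself had at most 6 reads in any WT library, at most 2 in p16KO, between 2 and 9 in AppNLGF and at most 8 in AppNLGF_p16KO, too few for the test, so the genotype names below are those of the labels. The count covers the whole gene, and in AppNLGF_p16KO it overlapped AppNLGF. Hippocampal markers summed to between 930.1 and 1390 counts per 1e+06 counts (CPM) in every library. The lowest sum belonged to AppNLGF_p16KO mouse 21, which also had the highest neuroblast and immature granule cell sum, 565.3 CPM. Most of that sum came from the marker Tubb3. In AppNLGF_p16KO the mean sum of the list was 468 CPM, of which Tubb3 gave 320 and Dcx 31.1. The highest value in that genotype was 411 CPM for Tubb3 and 40.8 for Dcx. The sum therefore mainly follows Tubb3 and does not measure the number of neuroblasts. Choroid plexus markers varied far more, from a sum of 128.1 CPM in WT mouse 2 to 5752 in p16KO mouse 12. Library numbers ran by genotype, so order of handling and genotype cannot be told apart. In this bulk tissue, fewer cells of a type and less RNA per cell cannot be told apart either.

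The promoters held sequence words known from genes bound by E2F, DREAM and MuvB. RefSeq promoter windows of 300 bases, 250 before the start and 50 after it (GRCm38.p6), were matched by symbol for 35 of the 41 genes. They were searched on both strands for 4 E2F words (TTTCCCGC, TTTGGCGC, TTTCGCGC, TTTGCCGC), for the cell cycle homology region word TTTGAA and for CCAAT. Of the E2F words, those ending in GCGC can overlap on opposite strands. An E2F word stood in 12 of the 35 genes (34.3%), against 2.6% of all 27025 genes with an entry, each counted over all its windows. TTTGAA stood in 12 of 35 (34.3%) against 20.2%, and CCAAT in 24 of 35 (68.6%) against 41.1%. Of all 32851 single windows, 2.26%, 17.9% and 37.4% held these words. By role, 4 of 5 helicase genes had an E2F word and 1 had TTTGAA, whereas of 11 mitosis genes 1 had an E2F word, 7 had TTTGAA and 10 had CCAAT. A match describes letters and is no measured binding site.

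The 250 bases before the start are shown for 5 genes on which the results below turn: a helicase subunit with 3 E2F words (Mcm6, chr1:128359706-128359955, shown after its values were seen), the sliding clamp with none (Pcna, chr2:132253181-132253430), and 3 mitotic genes (Cdk1, chr10:69352913-69353162; Top2a, chr11:99024190-99024439; Mki67, chr7:135716380-135716629). All 5 genes lie on the minus strand, and each sequence is written 5′ to 3′ in the direction of the gene. Capitals mark the E2F, TTTGAA and CCAAT words in either orientation, so that CCAAT on the other strand reads ATTGG.
Mcm6: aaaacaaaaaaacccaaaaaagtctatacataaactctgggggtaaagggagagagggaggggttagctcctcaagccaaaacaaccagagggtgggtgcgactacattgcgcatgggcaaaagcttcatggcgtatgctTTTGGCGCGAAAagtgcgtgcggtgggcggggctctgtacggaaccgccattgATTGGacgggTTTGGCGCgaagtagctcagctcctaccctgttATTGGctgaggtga
Pcna: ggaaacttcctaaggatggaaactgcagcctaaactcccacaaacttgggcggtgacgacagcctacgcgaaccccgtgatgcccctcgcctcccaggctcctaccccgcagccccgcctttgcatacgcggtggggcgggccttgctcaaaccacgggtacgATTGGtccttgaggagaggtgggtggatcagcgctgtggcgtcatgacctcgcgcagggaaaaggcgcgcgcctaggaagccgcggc
Cdk1: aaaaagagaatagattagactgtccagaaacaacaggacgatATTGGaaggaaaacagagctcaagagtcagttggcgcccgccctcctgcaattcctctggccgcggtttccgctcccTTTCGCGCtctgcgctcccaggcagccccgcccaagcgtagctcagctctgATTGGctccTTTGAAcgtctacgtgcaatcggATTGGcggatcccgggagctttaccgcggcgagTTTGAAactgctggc
Top2a: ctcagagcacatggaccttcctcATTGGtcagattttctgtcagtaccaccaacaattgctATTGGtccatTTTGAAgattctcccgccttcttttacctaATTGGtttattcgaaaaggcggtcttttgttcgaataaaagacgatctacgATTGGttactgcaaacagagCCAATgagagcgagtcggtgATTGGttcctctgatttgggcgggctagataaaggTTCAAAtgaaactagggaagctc
Mki67: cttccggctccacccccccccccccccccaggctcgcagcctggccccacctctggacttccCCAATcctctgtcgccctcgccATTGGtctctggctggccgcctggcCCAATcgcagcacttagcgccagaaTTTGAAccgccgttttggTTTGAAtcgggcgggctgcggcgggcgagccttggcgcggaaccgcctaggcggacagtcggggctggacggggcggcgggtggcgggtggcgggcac
In Mcm6 the first capital run is a pair of overlapping E2F words on opposite strands. Cdk1 alone of the 11 mitosis genes with an entry held an E2F word, followed by 2 TTTGAA words. Pcna held a single CCAAT word, and Top2a held 6 CCAAT words and 2 TTTGAA words. Mki67 held 3 CCAAT words and 2 TTTGAA words.

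The levels of the genes spanned a wide range, and most roles overlapped. Levels between genes are compared as CPM divided by exon length in kilobases (RPKM), averaged over libraries. Exon length counts every annotated exon of a gene once, whether or not its transcript is present. Pcna, the sliding clamp that holds DNA polymerase on its template, was the highest at 9.27 RPKM, followed by Ccne1 (cyclin E1, the partner of Cdk2 at the G1/S transition) at 5.77 and Fen1 (the flap nuclease that trims Okazaki fragments) at 5.19. The lowest was Mki67, which encodes the Ki-67 protein that coats mitotic chromosomes and marks cycling cells, at 0.0198 RPKM. The median was 3.24 RPKM over the 4 DNA synthesis genes, 1.77 over the 6 helicase genes and 0.179 over the 13 mitosis genes. All mitosis genes (0.0198 to 0.593 RPKM) lay below all helicase genes (0.939 to 3.85) and all DNA synthesis genes (1.24 to 9.27), and the ranges of the other 4 roles overlapped with all of these. Within the helicase, whose 6 subunits form 1 ring in equal numbers, RNA levels ran from 0.939 RPKM for Mcm2 to 3.85 for Mcm4. Without division by length the order differed, from 3.93 CPM for Mcm3 to 15.5 for Mcm6, with Mcm2 at 6.53. Nucleotide supply held both Rrm1 (the large subunit of ribonucleotide reductase) at 1.99 RPKM and Tk1 (thymidine kinase) at 0.0421. Its small subunit Rrm2 stood at 0.492.

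**Figure D1:**
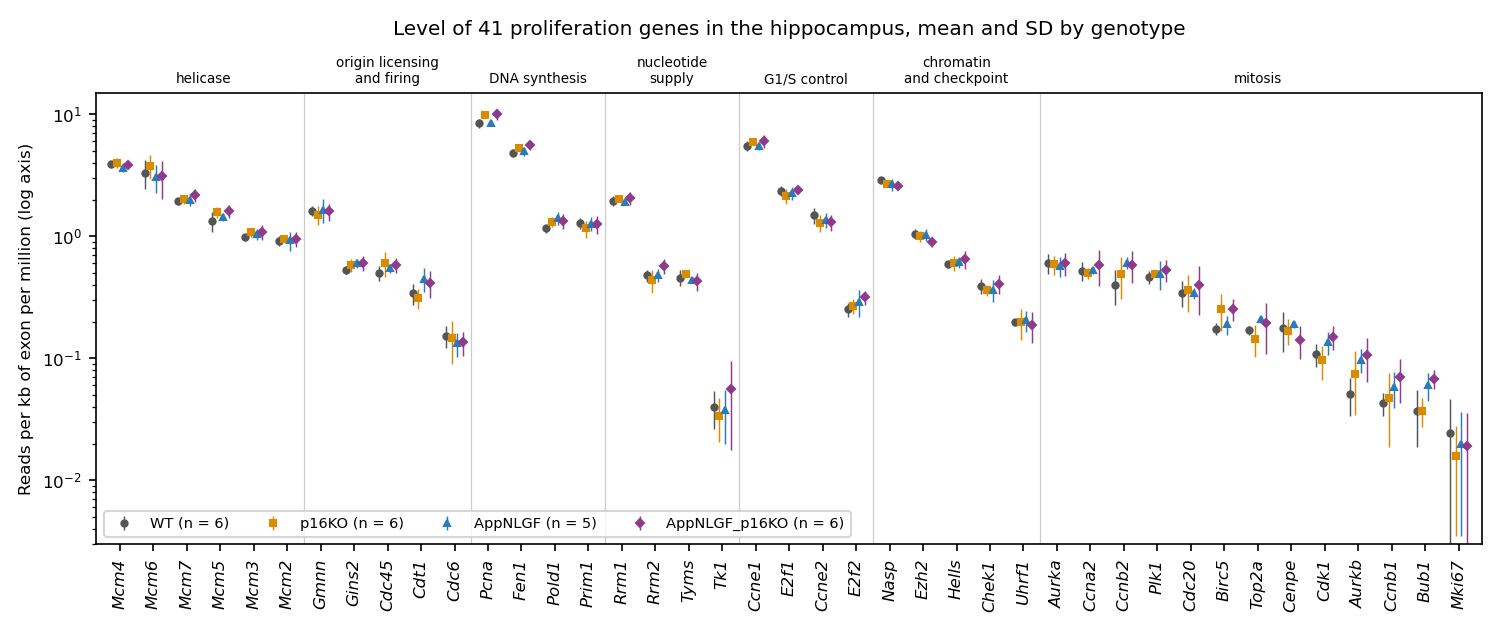
Mean level of each of the 41 genes in RPKM (log axis), with 1 point per genotype and SD bars over 5 or 6 mice; lower bars that run off the axis reach toward 0. By median, DNA synthesis genes are the highest role (3.24) and mitosis genes the lowest (0.179), with Mki67 at the bottom.

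Several mitotic genes had few reads, and of the 13 all but Bub1 varied between mice by more than counting error gives. Counts ran from 3 to 37 reads per library for Mki67, from 1 to 27 for Aurkb (the kinase of the chromosomal passenger complex) and from 3 to 21 for Bub1 (a spindle checkpoint kinase), against 767 to 1556 for Pcna. The coefficient of variation (CV) between mice of the same genotype was 7.57% for Pcna, 87.1% for Mki67 and 56.1% for Tk1. Counting error alone gives 2.88%, 30.3% and 29.4% for these mean counts. For Top2a the CV was 28.5% against 10.7%, and for Bub1 28% against 29%.

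Loss of p16, averaged over both App genotypes, raised 3 of the 41 genes and lowered none. They were Pcna, Fen1 and Birc5, the last encoding survivin of the chromosomal passenger complex, with changes of 1.11 to 1.4-fold. The 3 genes are 7.32% of the 41, against 7.66% of all genes called higher and 13% called in either direction, so the share was near the background. Both counts moved when 1 mouse was left out: 2522 genes in all became 762 without AppNLGF mouse 16 and 5117 without AppNLGF_p16KO mouse 23, and the 3 became 1 without AppNLGF mouse 16 or p16KO mouse 12 and 5 without AppNLGF_p16KO mouse 23. The test was the edgeR quasi-likelihood F test with Benjamini-Hochberg adjustment over 19423 genes at a threshold of 0.05, which also gives the adjusted p-values below. The median log2 change of the 41 genes was 0.056 beside 0.004 for all genes, and 28 values were above 0. At an unadjusted p under 0.05 there were 5 of the 41 genes (12.2%), against 31% of all genes, and 5.32% of all genes were called lower. By role, all 6 helicase values were above 0, with a median of 0.097, and none was called. The helicase values lay between 0.05 and 0.21, and the highest was Mcm5 (adjusted p = 0.0706).

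Pcna (ENSMUSG00000027342, chr2:132249162-132253314, GRCm38) was at 18.7, 20.3 and 23.6 CPM in WT (lowest, median, highest) and at 22.5, 23.9 and 24.9 in p16KO. In AppNLGF it was at 20.5, 21.4, 20.0, 20.5 and 18.8 CPM, and in AppNLGF_p16KO at 19.7, 24.6 and 27.1. All 6 p16KO mice lay above every WT mouse except mouse 1, and in the App knock-in only AppNLGF_p16KO mouse 23 fell among its controls. The log2 change was 0.24 ± 0.05 (SE, adjusted p = 0.00709), and 11 of 12 mice lacking p16 lay above the mean of their matched controls. In the single comparisons it was 0.22 ± 0.07 with normal App (adjusted p = 0.111) and 0.27 ± 0.07 in the knock-in (adjusted p = 0.112), neither past the threshold.

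Fen1 (ENSMUSG00000024742, chr19:10199132-10204169) was at 11.0, 11.5 and 13.1 CPM in WT and at 12.0, 12.8 and 13.4 in p16KO. In AppNLGF it was at 11.7, 12.5, 11.4, 11.0 and 13.6 CPM, and in AppNLGF_p16KO at 11.9, 13.5 and 15.0. The ranges overlapped in both backgrounds, and 11 of 12 mice lacking p16 were above their matched mean. Its log2 change was 0.15 ± 0.05 (adjusted p = 0.0453). This call was the least stable: it was lost with another scaling (adjusted p = 0.053), without the read minimum (0.116) and in 16 of 23 fits that left out 1 mouse. It was also lost with length and GC trends removed, where the change was 0.08 (adjusted p = 0.224).

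Birc5 (ENSMUSG00000017716, chr11:117849251-117855743) was at 0.511, 0.582 and 0.687 CPM in WT and at 0.616, 0.743 and 1.35 in p16KO. In AppNLGF it was at 0.612, 0.495, 0.807, 0.677 and 0.639 CPM, and in AppNLGF_p16KO at 0.679, 0.828 and 1.21. Ranges overlapped, with p16KO mice 10 and 12 and AppNLGF_p16KO mouse 19 the highest, on 26 to 68 reads per library. The log2 change was 0.48 ± 0.14 (adjusted p = 0.0288), and 12 of 12 mice lacking p16 lay above their matched mean. The call was lost without p16KO mouse 12, where the change was 0.44 (adjusted p = 0.0518), and without AppNLGF mouse 16, where it was 0.49 (0.058). It was also lost without the read minimum, at 0.49 (0.062), so the size of the change held while the p-value crossed the threshold.

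**Figure D2:**
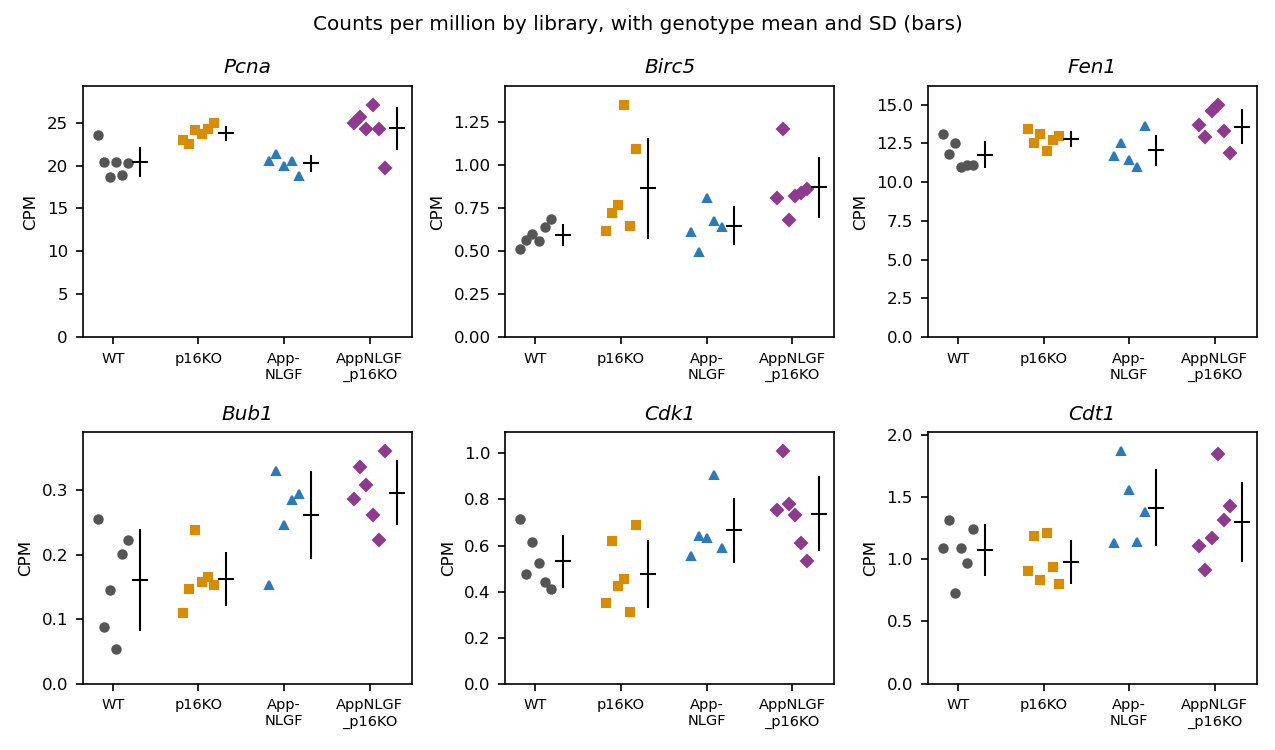
CPM by library for the 3 genes called under p16 loss (Pcna, Birc5, Fen1) and the 3 with the smallest p under the App knock-in (Bub1, Cdk1, Cdt1); points are mice, bars the genotype mean and SD. Pcna lies at 22.5 to 24.9 CPM in p16KO against 18.7 to 23.6 in WT, and the ranges overlap.

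No gene of the G1/S group and no landmark other than Pcna was called under p16 loss. Ccne1 was at 13.2, 14.8 and 16.0 CPM in WT and at 14.3, 15.7 and 17.4 in p16KO, with overlapping ranges. Its averaged log2 change was 0.12 ± 0.06 (adjusted p = 0.142). E2f1, the activating transcription factor itself, had an averaged change of -0.03 ± 0.07 (adjusted p = 0.789). Mcm2 changed by 0.05 ± 0.07 and Rrm2 by 0.05 ± 0.10 (adjusted p = 0.693 and 0.772). Among mitotic genes Top2a, which encodes the topoisomerase that untangles chromosomes, had -0.16 ± 0.15 (adjusted p = 0.507), and Cdk1, the mitotic kinase, had 0.00 ± 0.15 (adjusted p = 0.99). Mki67 had -0.33 ± 0.42 (adjusted p = 0.639), an error larger than the value.

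The levels of Mcm2 and E2f1 overlapped between all genotypes. Mcm2 ran from 5.48 to 8.18 CPM over all mice, with medians of 6.18 in WT, 6.59 in p16KO, 5.66 in AppNLGF and 6.54 in AppNLGF_p16KO. For E2f1 the lowest, median and highest were 6.52, 7.59 and 8.19 CPM in WT, beside 5.72, 6.80 and 8.17 in p16KO. AppNLGF and AppNLGF_p16KO had E2f1 medians of 7.14 and 7.30 CPM.

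In each genotype the highest Mki67 value lay well above the median. The lowest, median and highest Mki67 values were 0.0852, 0.175 and 0.678 CPM in WT and 0.0792, 0.115 and 0.405 in p16KO. In AppNLGF the 5 mice had 0.0574, 0.183, 0.105, 0.481 and 0.172 CPM, and in AppNLGF_p16KO the lowest, median and highest were 0.0618, 0.137 and 0.499. Top2a behaved otherwise, with p16KO mice 7 and 8 the lowest of all (0.814 and 0.834 CPM) and AppNLGF_p16KO mouse 19 the highest (3.21 CPM). The 5 AppNLGF mice lay between 1.67 and 2.05 CPM for Top2a, and the WT mice between 1.34 and 1.70. Rrm2 had medians of 1.29 CPM in WT, 1.24 in p16KO, 1.36 in AppNLGF and 1.55 in AppNLGF_p16KO, with ranges that overlapped.

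The remaining genes were not called in any contrast, and their p16 values went both ways. In origin licensing and firing, Cdc45, which travels with the helicase, had 0.18 ± 0.10, its GINS partner subunit Gins2 0.07 ± 0.08, the loader Cdc6 -0.01 ± 0.18 and Gmnn (geminin, the inhibitor of Cdt1) -0.08 ± 0.10. In DNA synthesis, the polymerase delta catalytic subunit Pold1 had 0.06 ± 0.07 and the primase subunit Prim1 -0.08 ± 0.09. In nucleotide supply, Rrm1 had 0.08 ± 0.05 and Tyms (thymidylate synthase) 0.04 ± 0.08. The chromatin and checkpoint genes had a median of -0.069, with the methyltransferase Ezh2 at -0.12 ± 0.06 and the histone chaperone Nasp at -0.07 ± 0.05 on the negative side. There Hells, Chek1 and Uhrf1 lay between -0.07 and 0.05. The other cyclin E gene, Ccne2, had -0.13 ± 0.09 where Ccne1 had 0.12 ± 0.06, and E2f2 had 0.10 ± 0.11. Among mitosis genes the values ran from -0.33 for Mki67 to 0.48 for Birc5, and 9 of 13 were above 0. Of 49 mitosis genes outside the 41, 20 were above 0 and 29 below, with a median of -0.061.

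Neither single p16 comparison called any of the 41 genes. For p16KO against WT the background was 0.309% called, 3 of the 41 genes had an unadjusted p under 0.05 (7.32%, against 15.8% of all genes), and DESeq2 called 0. For AppNLGF_p16KO against AppNLGF the background was 0.0309%, 3 genes had an unadjusted p under 0.05 (23.5% of all genes did), and DESeq2 called Pcna of the 7 genes for which it gave an adjusted p. The interaction of both alleles called 0 of 41, with 0% of all genes called, 0 at an unadjusted p under 0.05 (5.26% of all genes) and 0 by DESeq2. The largest interaction by p was Rrm2 at 0.40 ± 0.21 (adjusted p = 0.897).

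Some cell type markers were called under p16 loss as well, in a contrast that called 13% of all genes. No marker was called in the hippocampus, plaque-induced microglia, meninges and fibroblast, choroid plexus and blood lists. In the averaged contrast, 3 of 8 microglia markers (Tmem119, Aif1 and C1qa) rose, by 0.21 to 0.37 log2. All 8 microglia markers were detected, and their summed level ranged between 341 and 401 CPM in WT, between 384 and 424 in p16KO, between 436 and 515 in AppNLGF, and between 468 and 527 in AppNLGF_p16KO. In 5 other lists 1 or 2 markers were called and the rest went both ways. Flt1 and Kdr, 2 of 8 endothelial markers, fell by 0.27 and 0.29, while 4 of the 8 values were above 0 (median 0.031). Nes, 1 of 7 tested markers of stem cells and intermediate progenitors, fell by 0.66, while 3 of the 7 values were above 0 (median -0.002). In the neuroblast list Tubb3 rose by 0.26, while 5 of the 8 values were below 0 (median -0.069). In the oligodendrocyte precursor list Neu4 rose by 0.18, while 5 of the 8 values were below 0 (median -0.027). In the ependyma list Ccdc39 fell by 0.35, while 5 of the 8 values were above 0 (median 0.014). The summed endothelial level ranged between 244 and 275 CPM in WT, 226 and 286 in p16KO, 249 and 284 in AppNLGF, and 242 and 287 in AppNLGF_p16KO. The stem cell sum ranged between 132 and 150, 112 and 156, 122 and 170, and 135 and 169 CPM in the same order. The part of these markers in the Pcna, Fen1 and Birc5 changes was not tested.

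The App knock-in, averaged over both p16 genotypes, called 0 of the 41 genes with edgeR, against a background of 0.793%. At an unadjusted p under 0.05 there were 7 genes, 6 higher and 1 lower, which is 17.1% of the 41 beside 10.4% of all genes, and DESeq2 called 0. Of these, 5 were of the 13 mitosis genes (Bub1, Cdk1, Aurkb, Ccnb2 and Top2a) and none had passed after adjustment. Among 49 mitosis genes outside the 41, 4 (8.16%) had an unadjusted p under 0.05, a share below that of all genes. Of these 49 values 35 were above 0, with a median of 0.116. The median log2 value was 0.105 for the mitosis genes, 0.052 for all 41 and 0 for all genes. The 2 comparisons that enter the average share no mice.

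Bub1 (chr2:127801122-127831865) was at 0.0543, 0.173 and 0.255 CPM in WT and at 0.153, 0.330, 0.246, 0.285 and 0.295 in AppNLGF. It was at 0.110, 0.156 and 0.239 CPM in p16KO and at 0.223, 0.297 and 0.361 in AppNLGF_p16KO. The ranges overlapped in both pairs, and 10 of 11 knock-in mice were above their matched mean. Its log2 value was 0.76 ± 0.21 (adjusted p = 0.119), on 3 to 21 reads per library.

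Cdk1 (chr10:69335146-69352938) was at 0.412, 0.501 and 0.715 CPM in WT and at 0.555, 0.641, 0.632, 0.908 and 0.590 in AppNLGF. It was at 0.313, 0.441 and 0.689 CPM in p16KO and at 0.534, 0.744 and 1.01 in AppNLGF_p16KO. All 11 knock-in mice lay above their matched mean, although the ranges overlapped, and the log2 value was 0.47 ± 0.15 (adjusted p = 0.212). Cdt1, which loads the helicase at origins, had 0.40 ± 0.13 (adjusted p = 0.212), with 10 of 11 mice above the matched mean. It was at 0.725, 1.09 and 1.32 CPM in WT and at 1.13, 1.87, 1.56, 1.14 and 1.38 in AppNLGF. In p16KO it was at 0.804, 0.921 and 1.21 CPM and in AppNLGF_p16KO at 0.911, 1.25 and 1.85, with ranges that overlapped.

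Aurkb, in AppNLGF against WT, was the only gene of the 41 with groups that did not overlap in 1 of the 4 comparisons between genotypes. It was at 0.0852, 0.166 and 0.201 CPM in WT and at 0.402, 0.256, 0.263, 0.267 and 0.246 in AppNLGF. Groups separated in this direction for 1.16% of all genes (0.489% in the other), and the change was not called (0.90 ± 0.39, adjusted p = 0.537). On the p16-null background its values in p16KO and AppNLGF_p16KO overlapped. Across all genes, groups separated upward and downward for 1.32% and 0.541% in p16KO against WT, for 0.535% and 0.597% in AppNLGF_p16KO against AppNLGF, and for 0.33% and 0.113% in AppNLGF_p16KO against p16KO. For AppNLGF against WT, 0 of 41 genes were called (0.319% of all genes), 6 had an unadjusted p under 0.05 (8.54% of all), and DESeq2 called 0. For AppNLGF_p16KO against p16KO the figures were 0 called (0.247% of all), 4 at an unadjusted p under 0.05 (7.89% of all) and 0 by DESeq2.

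Besides Cdk1, the landmarks whose App knock-in values exceeded their errors were Top2a and Rrm2, and none was called. Top2a had 0.35 ± 0.15 (adjusted p = 0.413) and Rrm2 had 0.19 ± 0.10 (adjusted p = 0.555). Pcna had 0.01 ± 0.05, E2f1 0.04 ± 0.07, Ccne1 0.00 ± 0.06, Mcm2 0.00 ± 0.07 and Mki67 0.00 ± 0.34. Microglial markers moved with the knock-in: 4 of 8 general markers and 4 of 8 plaque-induced markers rose in the averaged contrast, Trem2 by 0.93 ± 0.06 and Cst7 by 5.08 ± 0.24 (adjusted p = 1.54e-10 and 1.25e-12). Their part in the Bub1, Cdk1 and Cdt1 values was not tested.

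**Figure D3:**
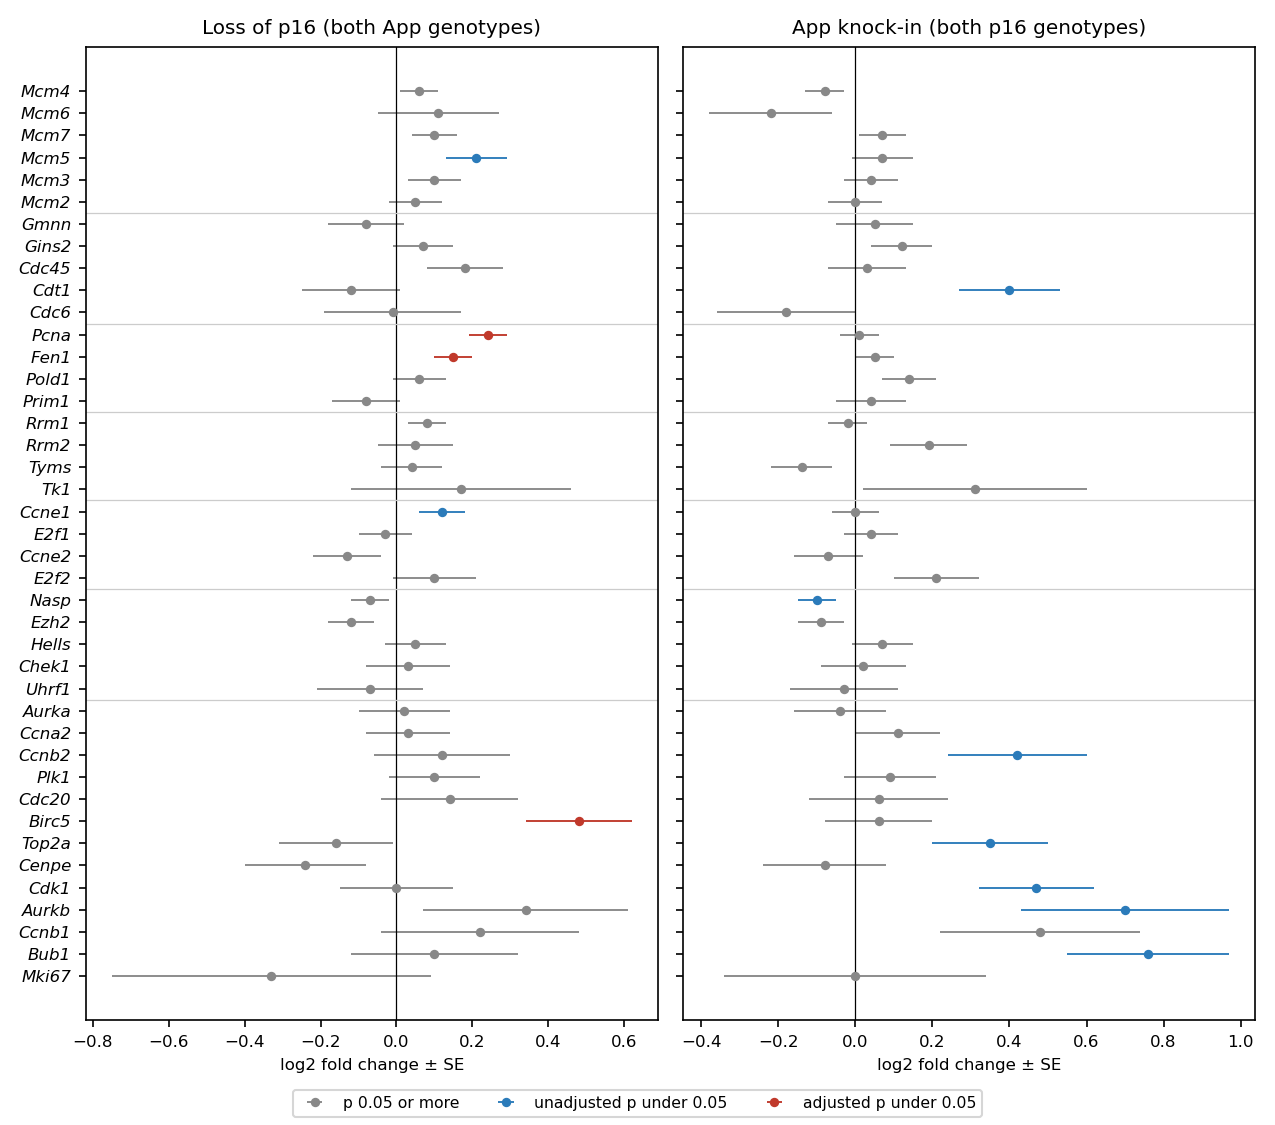
Log2 change ± SE of the 41 genes under p16 loss (left) and the App knock-in (right), each averaged over the other allele, ordered by role; colours mark the p-value class. Pcna, Fen1 and Birc5 alone carry the adjusted call on the left, and no gene does on the right, where 5 mitosis genes reach an unadjusted p under 0.05.

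From a list of 113 further cell cycle genes, 111 were tested, and p16 loss averaged called 4 higher and 2 lower, a smaller share than the 7.66% and 5.32% of all genes. At an unadjusted p under 0.05 there were 26 (23.4%), against 31% of all genes. The replication protein A subunit Rpa2 rose by 0.28, the polymerase delta subunit Pold2 by 0.21, the securin Pttg1 by 0.19 and the clamp loader subunit Rfc2 by 0.14 (adjusted p = 0.0148, 0.0204, 0.0198 and 0.0314). The maintenance methyltransferase Dnmt1 fell by 0.25 and Incenp, the scaffold of the passenger complex to which survivin binds, by 0.21 (adjusted p = 0.0412 and 0.0293). The median of the 111 was -0.027. None of the 111 was called in the other 6 contrasts by edgeR, where 0 to 19 had an unadjusted p under 0.05. The 19 were in AppNLGF_p16KO against AppNLGF, 17.1% of the list beside 23.5% of all genes.

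Mouse-to-mouse variation was then examined with the genotype means subtracted. Of the other 40 genes, 1 correlated with Mki67 past the adjusted threshold, and that was negative. Mki67 had only 3 to 37 reads per library, with a counting error of 30.3%. The 0.5 CPM added before the logarithm exceeded its mean of 0.199 CPM. A weak correlation with Mki67 therefore does not show that genes vary apart from it. For Ccne1, Pearson's r was -0.69 (permutation p = 0.00071, adjusted p = 0.0362 over 51 relations) and Spearman's rho -0.71 (permutation p = 0.00096, adjusted p = 0.049). Without the 2 mice farthest from the median of Mki67, WT 5 and AppNLGF_p16KO 23, r was -0.56 and the adjusted threshold was no longer passed, nor was it with log2(CPM + 0.1). With Top2a, Mki67 gave r = 0.19 (permutation p = 0.391, adjusted p = 0.678), rho = 0.21 (permutation p = 0.3) and r = 0.13 without those mice. The median r of the 12 other mitosis genes was 0.15. The highest was that of Cenpe, a kinetochore motor, at 0.58 (permutation p = 0.00993, adjusted p = 0.169), or 0.36 without those mice.

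The 10 genes of all 15549 ranked whose pattern was nearest to Mki67 over the 23 libraries had r of 0.75 to 0.79, and included Golgb1, Akap9, Dst, Ankrd11 and Ank3. Their exon lengths had a median of 15287 bases, against 4354 over all genes ranked. D11Wsu47e (2382 bases) and H2-M5 (2691), also among the 10, were shorter than that. Mki67 is itself long (10061 bases). For Top2a, at 9013 bases, the 10 nearest genes had a median of 4883.5 bases. The part of length in these patterns was not tested. WT mouse 5 was highest in both Mki67 (0.678 CPM) and Golgb1 (88.0 CPM), followed for Golgb1 by AppNLGF mouse 16 (57.2) and AppNLGF_p16KO mouse 23 (40.6). These 3 mice also held the 3 highest Mki67 values. The match did not extend to p16KO mouse 11, next for Mki67 (0.405 CPM) but at 18.7 CPM for Golgb1.

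With Top2a in its place, an anchor chosen after the Mki67 values were seen, all 12 other mitosis genes had a positive r, from 0.08 to 0.69 (median 0.42). No relation passed the adjusted threshold. Ccna2 (cyclin A2) gave r = 0.69 (permutation p = 0.00468, adjusted p = 0.167) and rho = 0.62 (permutation p = 0.00483), falling to r = 0.49 without AppNLGF_p16KO 19 and p16KO 7. Cdc20, the activator of the anaphase-promoting complex, fell from 0.65 to 0.37 and Cenpe from 0.59 to 0.42. Without those mice Cdk1 went from 0.08 to -0.35 and Aurka from 0.23 to 0, so the positive sign did not hold for all 12. By rank, Cdk1 was negative with all mice included (rho = -0.11). Mouse 19 had 162 Top2a reads and a mitosis sum of 18.05 CPM, the highest of the 23, but a low Mki67 count of 5 reads.

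**Figure D4:**
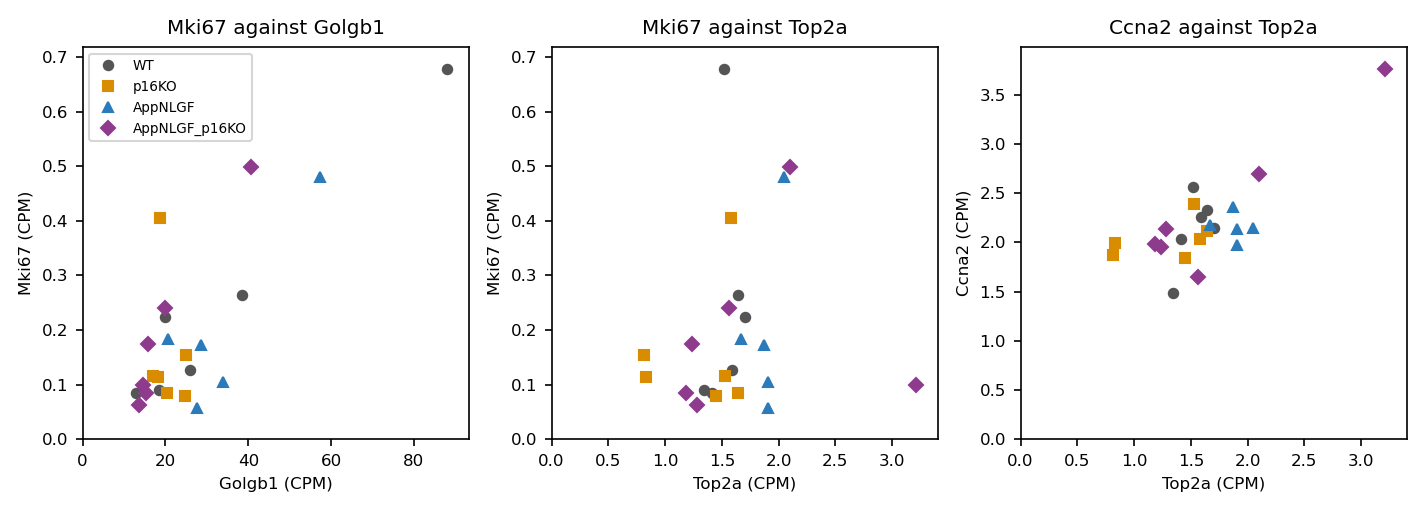
CPM by mouse for Mki67 against Golgb1 (left), Mki67 against Top2a (middle) and Ccna2 against Top2a (right), with symbols for genotype. WT mouse 5 is highest for Mki67 (0.678) and Golgb1, while AppNLGF_p16KO mouse 19 is highest for Top2a (3.21) and Ccna2 but low for Mki67.

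Mcm6, a helicase subunit, had the widest spread relative to its depth. Its CV within genotype was 27.2%, where counting alone gives 3.44%. The 23 libraries fell into a set of 12 at 10.6 to 12.9 CPM and a set of 11 at 16.0 to 22.8 CPM, a division seen in the values. Both sets occurred in every genotype: 3 and 3 mice in WT, 2 and 4 in p16KO, 3 and 2 in AppNLGF, and 4 and 2 in AppNLGF_p16KO. No other helicase gene had such a spread (CV 7.48% to 12.5%).

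The 10 genes nearest to Mcm6 (chr1:128331590-128359664) included 7 on chromosome 1, where 6.03% of the genes ranked lie on that chromosome. Among them were C1ql2, D2hgdh, Utp14b, Tnni1, Ro60 and Dstyk. Within the sets, Mcm6 and C1ql2 gave r = 0.21 (rho = 0.31, permutation p = 0.516 and 0.33) in the lower and r = 0.16 (rho = 0.25, permutation p = 0.634 and 0.452) in the upper. On C1ql2 the sets overlapped only through WT mouse 1 of the upper set (64.0 CPM). It lay below AppNLGF_p16KO mice 20 and 22 of the lower set (69.8 and 66.2). The other upper-set mice were at 77.0 CPM or more, above every mouse of the lower set. No pooled value is given because the libraries fall into separate sets of Mcm6. These genes were singled out after their values were seen.

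**Figure D5:**
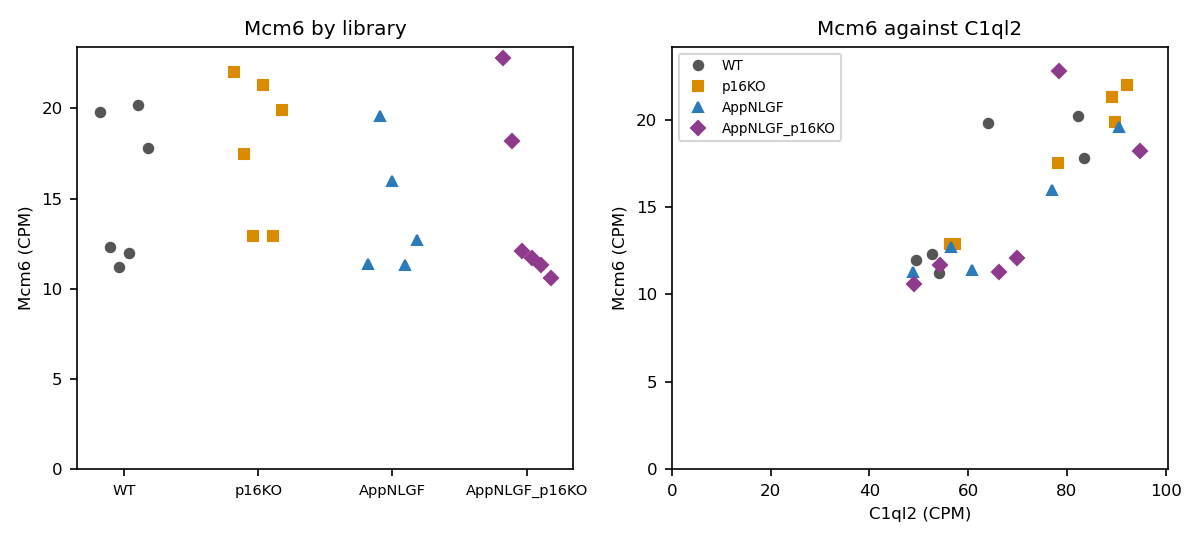
Mcm6 CPM by mouse in each genotype (left) and against C1ql2 CPM (right). On the Mcm6 axis the mice form a set at 10.6 to 12.9 CPM and a set at 16.0 to 22.8 CPM. Each set holds all 4 genotypes. On the C1ql2 axis WT mouse 1 of the upper set (64.0 CPM) lies among the lower set, and the other upper-set mice lie above the whole lower set.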

How the data were processed

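The table deposited by the authors holds raw, whole-number counts. The authors trimmed reads with cutadapt 4.2, removed ribosomal reads with Bowtie2 2.3.5 and counted uniquely aligned reads with STAR 2.7.10b on GRCm38, per the labels' protocols and the submitters' processing notes. The notes also list DESeq2 1.45.3, whose output was not used here. CPM and RPKM were computed here from those counts, RPKM with exon lengths of GENCODE M21. Genes were tested with edgeR 4.0.16 in R 4.3.3 (TMM, robust quasi-likelihood F test, filterByExpr minimum of 10, 1 model of 4 genotypes and 23 libraries), two-sided. P-values were adjusted by Benjamini-Hochberg over 19423 genes, and SE is the log2 change divided by the square root of F. DESeq2 1.42.0 was an alternative, run without the edgeR read minimum. It gave adjusted p-values to its own set of genes, and a gene without one counted as not called. Correlations used log2(CPM + 0.5) and 1e+05 permutations within genotype, two-sided. The edgeR step was tested on simulated data. The labels do not tie libraries to litters or batches. The libraries carried no molecular identifiers, so statements on depth cover counting error only.

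Genes named were those called in a contrast, the 3 with the smallest p in each averaged contrast, and 8 landmarks (Mcm2, Pcna, Rrm2, E2f1, Ccne1, Mki67, Top2a, Cdk1). The 41 genes, the lists and the tests were chosen with earlier results of these data known. Aurkb, Mcm6 and its neighbours were singled out after their values were seen. The neighbour search ran on the count-filtered genes, leaving out those with Gm numbers, Rik names or clone accessions as names.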

Additional observations from a re-analysis of the deposited data

Results flagged for a closer look

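Single mice stood apart from the rest of their genotype for 4 of the 13 genes examined in 4 genotypes, by Dixon's criterion on the gap to the nearest value. Chance flags about 1 in 20 such sets of values, and 52 were examined. Pcna in WT mouse 1 was 23.6 CPM, where the next was 20.4. Mki67 was 0.678 CPM in WT mouse 5, next 0.265, and 0.405 in p16KO mouse 11, next 0.154. Cdk1 in AppNLGF mouse 16 was 0.908 CPM, next 0.641. Birc5 in AppNLGF_p16KO mouse 19 was 1.21 CPM, next 0.861.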

How the results depend on the processing

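No paired analysis was possible because the genotypes share no replicate number. Counts of the 41 genes called stayed within 1.5 times in most settings. Under p16 loss averaged, 3 were called, but 1 (Pcna) without a read minimum, and 1 to 5 when 1 mouse was left out: 1 without p16KO 12 or AppNLGF 16, and 5 without AppNLGF_p16KO 23, which adds Ccne1 and Mcm5. With length and GC trends removed, an alternative added after seeing the data, the 3 were Birc5, Pcna and Rrm1. For p16KO against WT, leaving out 1 mouse gave 0 to 1, and for AppNLGF_p16KO against AppNLGF 0 to 2, both highest without AppNLGF_p16KO 23; DESeq2 gave 1 in the latter. Pcna stayed called under p16 loss averaged in all fits run (0.21 to 0.27, adjusted p up to 0.0193). The number correlated with Mki67, 1, became 0 with log2(CPM + 0.1), without the 2 farthest mice, and with Top2a.

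All-gene counts moved more. Those of DESeq2 are over its own set of genes, not the 19423 of edgeR. DESeq2 called 479 genes against 60 for p16KO minus WT, 149 against 62 for AppNLGF minus WT, 618 against 6 for AppNLGF_p16KO minus AppNLGF, 103 against 48 for AppNLGF_p16KO minus p16KO, 1 against 0 for the interaction and 287 against 154 for the App average. For p16KO minus WT, fitting only the groups compared gave 356, removing length and GC trends 17, and leaving out 1 mouse 7 to 239. AppNLGF_p16KO minus AppNLGF gave 3 with 15 reads in 90% of libraries, 17 without a read minimum, 0 in the groups alone, and 2 to 4156 without 1 mouse, highest without AppNLGF_p16KO 23. AppNLGF_p16KO minus p16KO gave 19 in the groups alone. The p16 average gave 1364 without a read minimum and 762 to 5117 against 2522 without 1 mouse.

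The submitters' distance criterion for libraries that stand apart, on principal components, was run first on the 500 most variable genes, where 0 of 23 libraries passed the limit (largest squared distance 10.5, limit 12.6). It was run again on all 18768 filtered genes after that result was seen, because the submitters' text names no subset, and 1 library, AppNLGF_p16KO 21, passed (12.4, limit 11.1). Without it Fen1 was 0.13 (adjusted p = 0.0828), and the all-gene counts were 189, 29 and 1410 for p16KO minus WT, AppNLGF_p16KO minus p16KO and the p16 average. The median of the 41 genes for AppNLGF_p16KO minus p16KO, 0.087, was 0.031 without it and 0.036 with 15 reads in 90% of libraries.

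Signs of values near 0 turned. With length and GC trends removed, Cdk1 under p16 loss was 0.00, and under the App knock-in Pcna was 0.00, E2f1 -0.01 and Ccne1 -0.03. Under the knock-in Mcm2 was 0.00 with 15 reads in 90% of libraries. DESeq2 gave Ccne1 0.00 and Mki67 -0.01, a sex covariate gave -0.01 and -0.04, and without AppNLGF_p16KO 21 Pcna was -0.01 and Ccne1 -0.03. Leaving out 1 mouse moved Cdk1 under p16 loss over -0.07 to 0.06, and under the knock-in Mcm2 over -0.05 to 0.02, Pcna -0.01 to 0.03, Ccne1 -0.03 to 0.03 and Mki67 -0.32 to 0.31. The cause of these differences was not tested.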
